A study of Mus musculus with 8 samples.

Results

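Matrix metalloproteinases (MMPs) are zinc-dependent enzymes that cut collagens, laminins and other proteins of the extracellular matrix, and tissue inhibitors of metalloproteinases (TIMPs) bind their active site and block them. The set described here was chosen by symbol in the deposited expression table. It held the 7 MMP genes Mmp2, Mmp3, Mmp9, Mmp10, Mmp13, Mmp14 and Mmp19 and the 3 inhibitor genes Timp1, Timp2 and Timp3, and all 10 were found among the 35976 genes of the table. MMPs are made as inactive proenzymes. Mmp14, which sits in the cell membrane, activates pro-Mmp2 in a complex that uses Timp2 as a bridge, so these products work as a unit. In skeletal muscle, myoblasts use such enzymes to pass through basement membrane, and Mmp2 and Mmp9 are the gelatinases best known from muscle repair.

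RNA came from C2C12, an established mouse myoblast line that divides as single cells and can form myotubes. The Atad2 shRNA group (4 libraries) received an shRNA against Atad2, a chromatin ATPase with a bromodomain, and the control shRNA group (4 libraries) a non-targeting shRNA. Cells of both groups were lysed 48 h after transfection. The shRNA sequences, the medium and any selection of transfected cells were not given in the sources used here, nor whether each library had a culture of its own. The p-values therefore speak of the spread among the libraries, which may be technical.

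Levels are given as deposited, as log2(normalized count + 1), and differences as log2 fold changes of Atad2 shRNA over control shRNA ± SE. Such a fold change understates the difference of weakly expressed genes. The limma test ran over the 14703 genes with a mean level above 3, and a gene was called higher or lower at a Benjamini-Hochberg adjusted p under 0.05. Libraries held 50316866 to 72276796 reads with Atad2 shRNA and 61356332 to 73009747 reads with control shRNA (exact permutation p = 0.457, two-sided). Genes with at least 1 read numbered 17753 ± 153 with Atad2 shRNA and 18889 ± 38.7 with control shRNA, and genes with at least 10 reads 14196 ± 145 with Atad2 shRNA and 15022 ± 70.05 with control shRNA (SD, n = 4 each; exact permutation p = 0.0286 for both, the smallest possible). The floor for a gene without reads was 3 reads, or 0.0411 to 0.0596 RPM, and covers counting error only. Atad2 itself stood at 11.93 ± 0.14 with Atad2 shRNA and at 14.67 ± 0.06 with control shRNA (SD, n = 4 each), a 6.66-fold lower level. Atad2 replicate 3 stood apart on the second principal component, which held 8.29% of the variance, and without it the same 4 members were called. Atad2 replicate 4 stood apart on the third component, which held 7.33%, and without it Mmp13 and Timp2 were called as well. All 8 myoblast markers were tested, of which 3 were higher and 5 lower. Myod1 and Des were at 5408 reads or more in every library. Myod1 had 5408 to 8218 reads with Atad2 shRNA and 6402 to 7021 with control shRNA. In the same order, Des had 26341 to 39067 and 27853 to 31710, and Itga7 6589 to 10103 and 8401 to 9605. Chrna1 had 3151 to 4635 reads with Atad2 shRNA and 5061 to 5762 with control shRNA, and Vcam1 2070 to 2913 and 3074 to 3775. Cdh15 had 2476 to 3828 reads with Atad2 shRNA and 7001 to 7604 with control shRNA. Myf5 had 213 to 348 reads with Atad2 shRNA and 689 to 898 with control shRNA. Pax7 had 0 to 12 reads with Atad2 shRNA and 19 to 41 with control shRNA.

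Mmp19 and Timp1 were higher and Mmp2 and Mmp14 lower with Atad2 shRNA. Mmp2 fell 4.31-fold and Mmp19 rose 4.195-fold, Timp1 rose 1.85-fold, and Mmp14 fell 1.15-fold. Timp2, Timp3 and Mmp13 did not pass the test, and Mmp3, Mmp9 and Mmp10 had too few reads to be tested. Of the 7 tested members, 4 were called in either direction, against 60.4% of all tested genes. Of these, 2 were higher, where 30.8% of all tested genes were higher, and 2 were lower, where 29.6% were lower. The groups did not overlap for 4 of the 7, against 53.5% of all tested genes, so the number of members called was close to the background. Of the called members, 1 was at least 2-fold higher (Mmp19) and 1 at least 2-fold lower (Mmp2). Of all tested genes, 2.52% were called and at least 2-fold higher, and 8.61% called and at least 2-fold lower. Mmp13, at 2.56-fold higher, was not called. The median log2 fold change was -0.06 over the 7 tested members and -0.01 over all tested genes. Over the 1717 tested genes with a mean level above 13, where Mmp14, Timp1, Timp2 and Timp3 lie, it was 0.11.

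**Figure D1:**
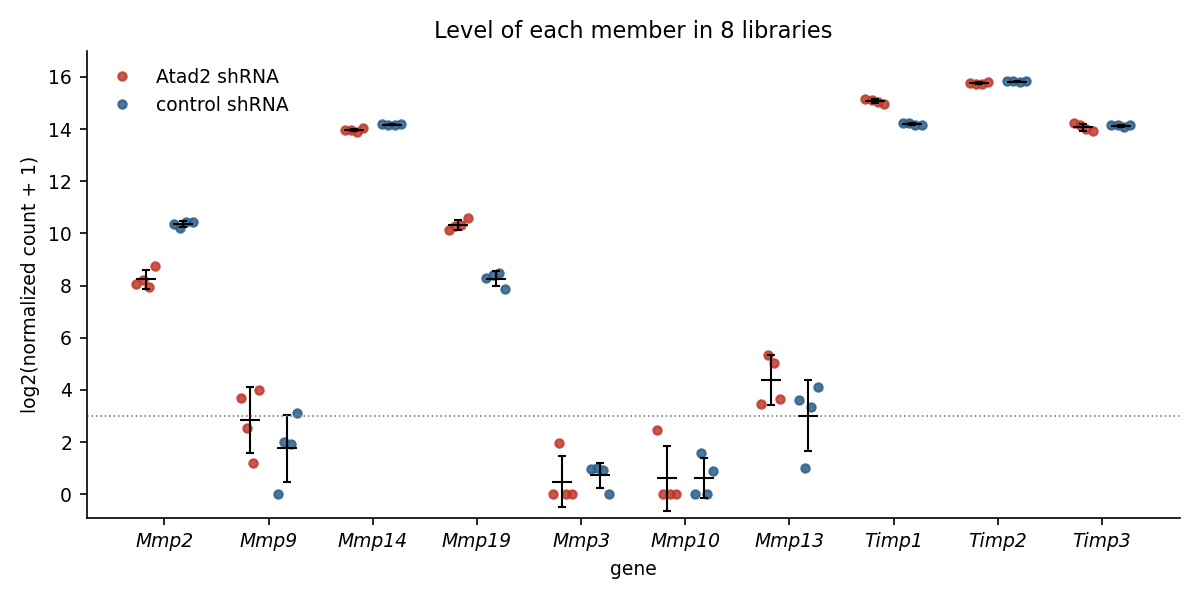
Level of each of the 10 genes as log2(normalized count + 1), with 1 point per library and the mean ± SD (n = 4) in black, Atad2 shRNA left and control shRNA right for each gene. The dotted line marks the mean level of 3 above which genes were tested. Mmp2 and Mmp19 show the widest gaps between groups, Timp1 a smaller one, Mmp3 and Mmp10 lie near 0, and Mmp9 lies around the dotted line or below it.

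Among the gelatinases, which digest denatured collagen and type IV collagen, Mmp2 carried nearly all reads. Mmp2 (chromosome 8, 92827291 to 92853420, GRCm38, protein-coding) stood at 8.05, 8.21, 7.96 and 8.76 with Atad2 shRNA and at 10.36, 10.19, 10.43 and 10.42 with control shRNA. Every Atad2 library was below every control library, and Atad2 replicate 4 was the highest of its group. The log2 fold change was -2.11 ± 0.13 (limma adjusted p = 8.2e-12), and read counts were 193 to 373 with Atad2 shRNA and 1163 to 1616 with control shRNA. Across 19 alternative settings it ranged from -2.28 to -1.98, with the call kept in each.

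Mmp9 (chromosome 2, 164940780 to 164955850), the other gelatinase, was barely detected. It had 13, 5, 1 and 13 reads with Atad2 shRNA and 0, 3, 3 and 9 reads with control shRNA. The groups overlapped, and its mean level of 2.31 left it below the filter. Tested without the filter, the log2 fold change was 1.09 ± 0.74 (limma adjusted p = 0.276), so a difference was not detectable at this depth.

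Mmp14 (chromosome 14, 54431612 to 54445364), the membrane-anchored activator of pro-Mmp2, was the MMP gene with the highest level per length. It stood at 13.97, 13.96, 13.90 and 14.03 with Atad2 shRNA and at 14.20, 14.14, 14.14 and 14.20 with control shRNA. The 2 ranges did not overlap although they lay close together. The log2 fold change was -0.20 ± 0.03 (95% interval -0.27 to -0.14, limma adjusted p = 1.2e-05), with 11903 to 17519 reads with Atad2 shRNA and 17997 to 22113 with control shRNA. Mmp14 was lower under each of 19 alternatives, with log2 fold changes from -0.32 to -0.18.

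Mmp19 (chromosome 10, 128790910 to 128800824), an MMP that also cuts insulin-like growth factor binding proteins, moved the opposite way. It stood at 10.14, 10.30, 10.31 and 10.59 with Atad2 shRNA and at 8.31, 8.39, 8.49 and 7.87 with control shRNA. All 4 Atad2 libraries lay above all 4 control libraries, and control replicate 4 was the lowest. The log2 fold change was 2.07 ± 0.12 (limma adjusted p = 3.5e-12), at 987 to 1330 reads with Atad2 shRNA and 274 to 387 with control shRNA, and 1.94 to 2.21 across the alternatives. Of its 3533 annotated exon bases, 28.3% overlap exons on the opposite strand, of the protein-coding gene Tmem198b and of an antisense transcript. The strand setting of the counting is not given, so reads there cannot be assigned with certainty. Tmem198b stood at 10.49 ± 0.08 with Atad2 shRNA and 10.30 ± 0.07 with control shRNA (log2 fold change 0.19 ± 0.06, limma adjusted p = 0.0079), and its part in the Mmp19 difference was not tested.

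The 2 stromelysins, Mmp3 and Mmp10, which cut a wide range of matrix proteins, and the collagenase Mmp13 lie together on chromosome 9. The cluster holds 10 MMP genes of the table between 7272514 and 7699585 (GRCm38), a span of 427 kb. Of these, 6 (Mmp1a, Mmp1b, Mmp7, Mmp8, Mmp12 and Mmp20) had 0 reads in all 8 libraries, and Mmp27 had 1 read in all. Mmp3 (7445822 to 7455975) had 0, 3, 0 and 0 reads with Atad2 shRNA and 1, 1, 1 and 0 with control shRNA. Mmp10 (7502352 to 7510240) had 5, 0, 0 and 0 reads with Atad2 shRNA and 0, 2, 0 and 1 with control shRNA. Apart from the 5 Mmp10 reads in Atad2 replicate 1, no count of either gene passed the floor of 3 reads, and no fold change is given.

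Mmp13 (7272514 to 7283331) was the member of this cluster with the most reads. It had 11, 41, 25 and 10 reads with Atad2 shRNA and 12, 1, 10 and 19 with control shRNA. The groups overlapped: Atad2 replicates 1 and 4 were within the control range. The log2 fold change was 1.35 ± 0.64 (95% interval 0.02 to 2.69, limma adjusted p = 0.074), and a difference was not established. Mmp13 passed without Atad2 replicate 1 (limma adjusted p = 0.0421), Atad2 replicate 4 (0.0469) or control replicate 4 (0.0405), and with quantile (0.0152) or cyclic loess normalization (0.0141).

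The sequences before the start sites of these 3 genes are shown because they carry the same pair of short motifs in the same order. An AP-1 site, searched as TGANTCA, and a TATA box, searched as TATAAA, each on both strands, are in capitals. The 250 bases upstream of the RefSeq start (GRCm38.p6, plus strand, chromosome 9) read 5′ to 3′ as follows.
Mmp3, chr9:7445572-7445821: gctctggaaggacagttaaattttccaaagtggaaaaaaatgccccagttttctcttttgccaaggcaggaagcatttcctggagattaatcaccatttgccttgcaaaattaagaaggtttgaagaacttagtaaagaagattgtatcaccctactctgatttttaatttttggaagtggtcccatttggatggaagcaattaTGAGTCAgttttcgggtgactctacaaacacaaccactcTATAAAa
Mmp10, chr9:7502092-7502341: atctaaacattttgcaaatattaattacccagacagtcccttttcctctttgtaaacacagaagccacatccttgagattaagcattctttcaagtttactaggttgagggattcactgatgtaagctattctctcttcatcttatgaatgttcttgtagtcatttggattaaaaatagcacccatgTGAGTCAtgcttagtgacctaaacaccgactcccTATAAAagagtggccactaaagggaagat
Mmp13, chr9:7272264-7272513: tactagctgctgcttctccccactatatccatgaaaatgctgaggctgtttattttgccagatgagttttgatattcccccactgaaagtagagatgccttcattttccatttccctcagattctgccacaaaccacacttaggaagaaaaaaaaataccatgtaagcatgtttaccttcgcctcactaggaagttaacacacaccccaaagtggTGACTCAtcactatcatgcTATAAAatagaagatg
In Mmp3 the AP-1 match starts 46 bases before the start site, in Mmp10 63 bases and in Mmp13 35 bases before it, and the TATA match starts 7, 29 and 16 bases before it in that order. An AP-1 match was present in 6.75% and a TATA match in 12.4% of all 32851 upstream windows of this length, and both were present in 1.21%. Of the 10 members 7 had an entry in the promoter table, and the other 4 (Mmp14, Timp1, Timp2 and Timp3) held neither motif. The motif letters do not overlap each other, and a match is a description of the letters only. A GC box, an Ets core (AGGAAG) and an antioxidant response element core (TGACNNNGC) were searched as well. Of these, the chromosome 9 windows held only the Ets core, 1 in Mmp3 and 2 in Mmp13, and 29.5% of all windows held it. Elsewhere Timp1 held 2 Ets cores, Mmp14 and Timp3 1 each, and Timp2 1 antioxidant response element core.

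Of the inhibitors, Timp1 alone passed the test. Timp1 (chromosome X, 20870166 to 20874735) encodes a secreted inhibitor of MMPs. Its level was 15.17, 15.09, 15.04 and 14.97 with Atad2 shRNA and 14.22, 14.21, 14.14 and 14.15 with control shRNA. The groups were far apart relative to their spread. Its log2 fold change was 0.88 ± 0.04 (95% interval 0.81 to 0.96, limma adjusted p = 3.1e-14), and it ran from 0.77 to 0.92 across 19 alternatives. Its reads numbered 26159 to 40249 with Atad2 shRNA and 18892 to 21434 with control shRNA. Timp1 lies within the synapsin gene Syn1 on the opposite strand and shares no exon base with it, and Syn1 stood at 10.61 ± 0.06 with Atad2 shRNA and 10.62 ± 0.13 with control shRNA.

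The upstream sequence of Timp1, the inhibitor that rose, is set beside that of Mmp14, the MMP gene that fell slightly. Both lack the AP-1 and TATA letters of the chromosome 9 genes, and the capitals mark a GC box, searched as GGGCGG on both strands and present in 32.7% of all windows.
Timp1, chrX:20869916-20870165, plus strand: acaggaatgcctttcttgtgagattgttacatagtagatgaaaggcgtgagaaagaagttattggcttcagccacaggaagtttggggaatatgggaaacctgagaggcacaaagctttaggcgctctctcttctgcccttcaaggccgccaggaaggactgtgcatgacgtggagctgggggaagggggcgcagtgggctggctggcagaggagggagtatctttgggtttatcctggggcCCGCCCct
Mmp14, chr14:54431348-54431597, plus strand: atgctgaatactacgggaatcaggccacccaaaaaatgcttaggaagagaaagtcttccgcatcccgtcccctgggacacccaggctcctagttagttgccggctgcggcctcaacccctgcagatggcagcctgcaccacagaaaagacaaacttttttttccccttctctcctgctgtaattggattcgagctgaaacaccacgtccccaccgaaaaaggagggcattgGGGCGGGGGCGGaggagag
Timp1 held 1 GC box and 6 CG dinucleotides, and Mmp14 held 2 adjoining GC boxes and 10 CG dinucleotides. Each of the 3 chromosome 9 windows held 1 CG, and the median over all windows was 6. Timp2 and Timp3, which did not pass the test, also held 1 GC box each, with 21 and 18 CG dinucleotides.

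Timp2 (chromosome 11, 118301069 to 118355740), the inhibitor that links Mmp14 to pro-Mmp2, had the highest read counts of the set. It stood at 15.76, 15.73, 15.73 and 15.82 with Atad2 shRNA and at 15.83, 15.83, 15.79 and 15.84 with control shRNA. The groups overlapped in a narrow band. Its log2 fold change of -0.07 ± 0.03 (95% interval -0.13 to -0.0018, limma adjusted p = 0.071) did not pass. Timp2 passed without Atad2 replicate 4 (-0.09, limma adjusted p = 0.0147), with the replicate number as a block (0.0469), with limma-voom on recovered reads (0.0421), and with quantile (-0.18) or cyclic loess normalization (-0.18).

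Timp3 (chromosome 10, 86300372 to 86349506), the inhibitor that stays bound to the matrix, had wider spread. It stood at 14.22, 14.15, 14.01 and 13.91 with Atad2 shRNA and at 14.14, 14.15, 14.08 and 14.16 with control shRNA. Atad2 libraries lay on both sides of the control range. With a log2 fold change of -0.06 ± 0.05 (95% interval -0.15 to 0.04, limma adjusted p = 0.321), no difference was established. Without Atad2 replicate 1, Timp3 passed at -0.10 (limma adjusted p = 0.0496), and with quantile or cyclic loess normalization at -0.17. Timp3 lies within Syn3 on the opposite strand, with 21.3% of its exon bases shared. Syn3 had 3 to 15 reads with Atad2 shRNA and 5 to 21 with control shRNA. The strand setting is not given, so reads on the shared bases cannot be assigned with certainty, and their part was not tested.

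**Figure D2:**
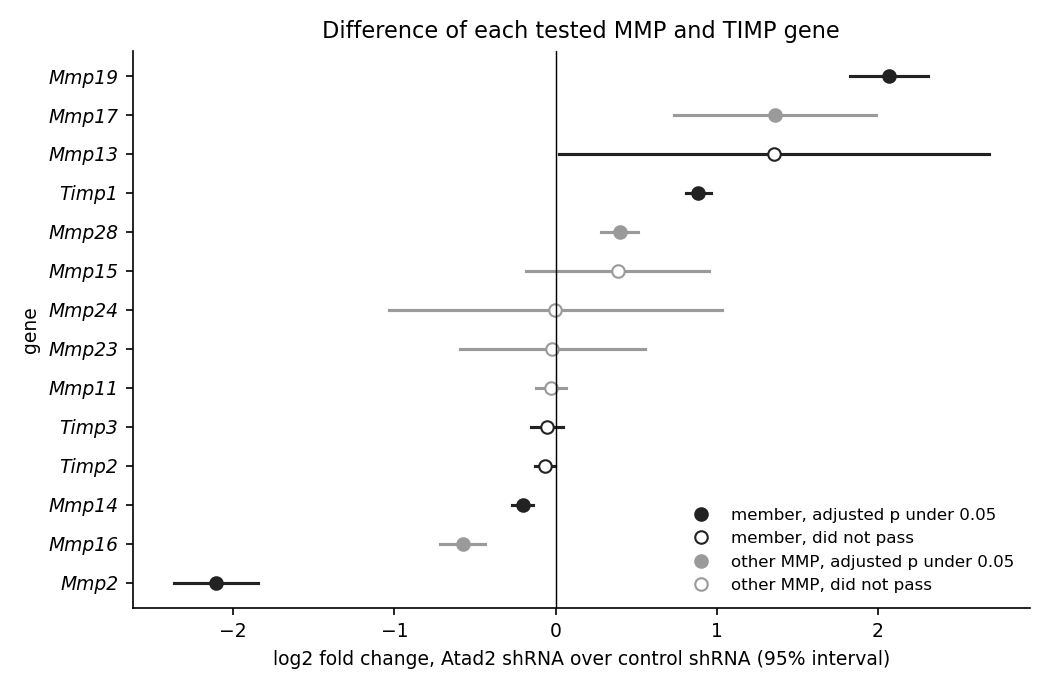
Log2 fold change of Atad2 shRNA over control shRNA with its 95% interval from limma for each tested MMP and TIMP gene (n = 4 libraries each), members in black and other family genes in grey, filled where the adjusted p was under 0.05. Mmp19 at 2.07 and Mmp2 at -2.11 lie at the ends, and the interval of Mmp13 reaches from 0.02 to 2.69.

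Levels of different genes were compared after division by the annotated exon length, as normalized counts per kb. With Atad2 shRNA the order began with Timp1 (38670 ± 2282), Timp2 (14210 ± 418), Mmp14 (2683 ± 93.3) and Timp3 (2125 ± 201), and with control shRNA the same genes led as Timp1 (20930 ± 621), Timp2 (14860 ± 227), Mmp14 (3091 ± 66.9) and Timp3 (2202 ± 54.0; SD, n = 4 each). No 2 neighbours among these overlapped in either group. Full exon lengths were used. Of the Timp3 exon bases 21.3%, and of the Mmp19 exon bases 28.3%, overlap exons on the opposite strand. As the strand setting is not given, reads there cannot be assigned with certainty, and the order of Mmp14 and Timp3 is uncertain. Mmp19 and Mmp2 changed places: Mmp19 averaged 367 ± 48.9 and Mmp2 91.8 ± 24.8 per kb with Atad2 shRNA, while Mmp19 averaged 87.9 ± 15.6 and Mmp2 388 ± 28.6 per kb with control shRNA. Mmp13 stood at 8.69 ± 5.48 with Atad2 shRNA and 3.53 ± 2.36 with control shRNA, within the range of its neighbour Mmp17 in both groups. Mmp9, Mmp10 and Mmp3 followed at 2.33 or less in both groups and overlapped their neighbours in the order.

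**Figure D3:**
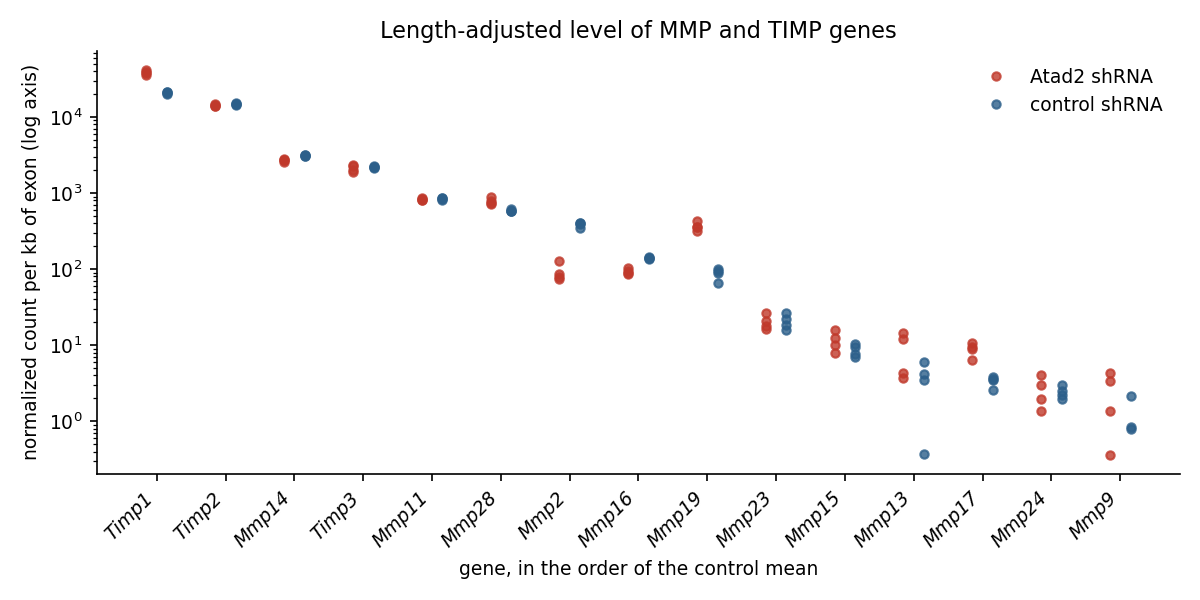
Normalized count per kb of annotated exon on a log axis, 1 point per library, for MMP and TIMP genes with at least 10 reads in any library, Atad2 shRNA left and control shRNA right, ordered by the control mean. A control value of 0 for Mmp9 is not drawn. Timp1, Timp2, Mmp14 and Timp3 lead in both groups, and Mmp2 and Mmp19 trade places.

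The make-up of the family's transcripts followed these differences. Of the summed level per kb of the 23 MMP genes in the table, Mmp14 made up 53.45% to 55.99% with Atad2 shRNA and 58.35% to 60.47% with control shRNA. Mmp2 made up 1.56% to 2.445% with Atad2 shRNA and 6.81% to 7.87% with control shRNA, and Mmp19 6.64% to 8.315% with Atad2 shRNA and 1.26% to 1.96% with control shRNA. Of the summed level of the 4 TIMP genes, Timp1 made up 68.3% to 71.5% with Atad2 shRNA and 54.1% to 55.7% with control shRNA. The TIMP sum was 10.1 to 12.1 times the MMP sum with Atad2 shRNA and 7.13 to 7.57 times with control shRNA. These shares describe RNA, depend on the annotated exon lengths, and carry no test.

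**Figure D4:**
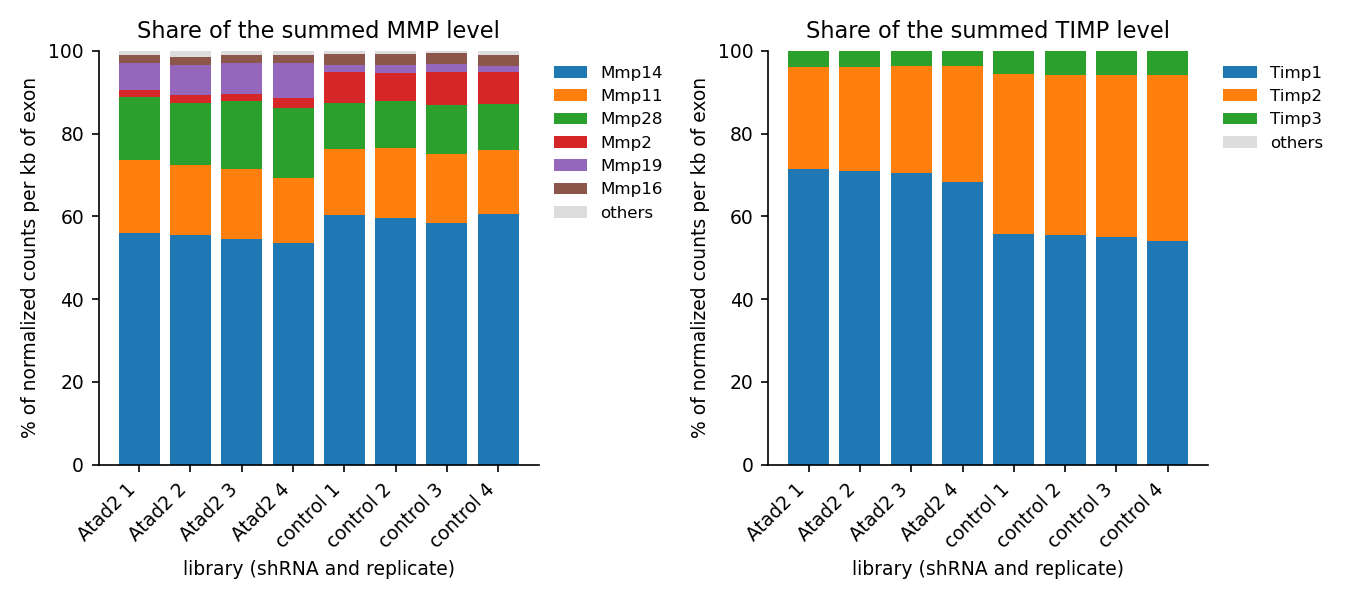
Share of each gene, in percent, of the summed normalized counts per kb of exon of 23 MMP genes (left) and 4 TIMP genes (right), 1 bar per library, Atad2 shRNA first. Mmp2 takes up to 2.445% with Atad2 shRNA and at least 6.81% with control shRNA, and Timp1 at least 68.3% with Atad2 shRNA and up to 55.7% with control shRNA.

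The rest of the family was seen in 17 further genes, of which 7 were tested. Mmp17, a membrane-anchored MMP, rose by 1.36 ± 0.30 on the log2 scale (limma adjusted p = 0.00057), at 33 to 74 reads with Atad2 shRNA and 18 to 28 with control shRNA. Mmp28, a secreted MMP, rose by 0.40 ± 0.06 to 11.56 ± 0.13 with Atad2 shRNA, against 11.16 ± 0.05 with control shRNA (limma adjusted p = 3.1e-06), with 12.03% of its exon bases shared with a gene on the opposite strand. Mmp16, like Mmp14 anchored in the membrane, fell to 9.66 ± 0.10 with Atad2 shRNA, against 10.24 ± 0.04 with control shRNA (-0.58 ± 0.07, limma adjusted p = 2.4e-07). Mmp11 (-0.03 ± 0.04), Mmp15 (0.39 ± 0.27), Mmp23 (-0.02 ± 0.27) and Mmp24 (-0.0018 ± 0.50) did not pass as log2 fold changes. Mmp15 passed with quantile and cyclic loess normalization (0.85 and 0.83), and the sign of Mmp23 and Mmp24 varied with the setting. Timp4 had at most 6 reads with Atad2 shRNA and 8 with control shRNA.

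The counts in each of the following lists stand against 30.8% higher and 29.6% lower over all tested genes. Among 16 tested ADAM and ADAMTS genes, which encode related proteinases that shed membrane proteins or cut proteoglycans, 6 rose, 5 fell and 5 did not pass (median log2 fold change 0.08). The aggrecanase genes went in opposite directions: Adamts5 fell to 9.41 ± 0.23 with Atad2 shRNA, against 12.31 ± 0.13 with control shRNA (-2.90 ± 0.08, limma adjusted p = 8.4e-17), and Adamts4 rose by 1.04 ± 0.10. Adamts1 changed by -1.06 ± 0.05 and Adamts6 by -0.51 ± 0.10. Adamts2, which trims procollagen, rose by 0.53 ± 0.08, the sheddase gene Adam17 by 0.44 ± 0.03 and Adam12 by 0.39 ± 0.04. The Adamts12 difference (-0.49 ± 0.17, limma adjusted p = 0.016) did not pass without Atad2 replicate 1 (0.0765) or control replicate 1 (0.0594), nor with quantile (-0.12, 0.537) or cyclic loess normalization (-0.19, 0.342).

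In the plasminogen system and among the proprotein convertases, which activate pro-MMPs, 6 of 11 tested genes rose, 4 fell and 1 did not pass (median 0.14). Serpinb2, an inhibitor of plasminogen activators, rose to 12.06 ± 0.28 with Atad2 shRNA, against 9.38 ± 0.17 with control shRNA (2.68 ± 0.10, limma adjusted p = 5.4e-15). The urokinase receptor gene Plaur rose by 0.78 ± 0.06, while the urokinase gene Plau changed by -1.11 ± 0.07. Serpine2, another inhibitor of serine proteases, changed by -1.26 ± 0.05 and the plasminogen receptor gene Plgrkt by -0.73 ± 0.07. Furin, the convertase that cleaves the prodomain of Mmp14, rose by 0.58 ± 0.03 and Pcsk6 by 1.12 ± 0.33. Plat, the tissue plasminogen activator gene, changed by -0.17 ± 0.07 (limma adjusted p = 0.038), but it did not pass without Atad2 replicate 1, 2 or 3 or control replicate 1 or 2 (0.0596 to 0.14), without the filter (0.0536) or without the variance trend (0.0925).

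Of 17 tested genes for surface partners, clearance and other inhibitors, 4 rose, 8 fell and 5 did not pass (median -0.23). Reck, a membrane-anchored inhibitor of MMPs, fell to 8.23 ± 0.16 with Atad2 shRNA, against 9.33 ± 0.09 with control shRNA (-1.10 ± 0.10, limma adjusted p = 8.3e-09). Thbs1, which encodes the matrix protein thrombospondin 1, changed by -1.49 ± 0.05, the procollagen proteinase enhancer gene Pcolce by -1.05 ± 0.04 and the caveolin gene Cav1 by -0.66 ± 0.04. Pcolce2, its paralog, rose by 0.69 ± 0.06, Cd44, the hyaluronan receptor gene, by 0.48 ± 0.04 and Sdc1, a syndecan gene, by 0.79 ± 0.04. Bsg, the MMP inducer gene also called EMMPRIN, rose by 0.10 ± 0.03, with the sign turned under quantile (-0.0033) and cyclic loess normalization (-0.0144).

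Of 27 tested transcription factor genes with known sites in MMP promoters, 15 rose, 9 fell and 3 did not pass (median 0.15). Members of AP-1, the factor whose letters stand in the chromosome 9 windows, moved in opposite directions. Fosl1 rose to 14.21 ± 0.12 with Atad2 shRNA, against 13.03 ± 0.05 with control shRNA (1.18 ± 0.04, limma adjusted p = 5.6e-15), and Jund changed by -0.63 ± 0.05. Fos stood at 7.85 ± 0.27 with Atad2 shRNA and 8.47 ± 0.46 with control shRNA (-0.62 ± 0.18, limma adjusted p = 0.0059), a call lost with quantile (0.135) and cyclic loess normalization (0.0959) and without the variance trend (0.064). Etv4, of the Ets family, rose by 1.16 ± 0.05, the NF-κB gene Relb by 0.89 ± 0.09 and Cebpb by 0.85 ± 0.06. Snai2 changed by -0.68 ± 0.07 and Stat3 by -0.57 ± 0.03. Without the variance trend, 4 of these genes were lower.

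Among 27 tested matrix substrates, 10 rose, 13 fell and 4 did not pass (median -0.16). Nid2, which encodes the basement membrane protein nidogen 2, changed by -1.58 ± 0.05, Col1a2 by -0.78 ± 0.06 and Col5a1 by -0.60 ± 0.04. Spp1, the gene of osteopontin, rose to 17.58 ± 0.03 with Atad2 shRNA, against 16.54 ± 0.06 with control shRNA (1.04 ± 0.04, limma adjusted p = 1.0e-15). Fmod, a small proteoglycan gene, rose by 1.29 ± 0.16 and Lama2, a laminin chain gene of muscle, by 0.79 ± 0.04. Dcn (decorin) rose by 0.74 ± 0.25, a call lost without Atad2 replicate 4 (limma adjusted p = 0.0523). The Efemp1 difference (-0.73 ± 0.30, limma adjusted p = 0.045) passed only in part of the settings, and was lost without any single Atad2 library but replicate 4 and without control replicate 1, 2 or 4 (0.0695 to 0.192).

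**Figure D5:**
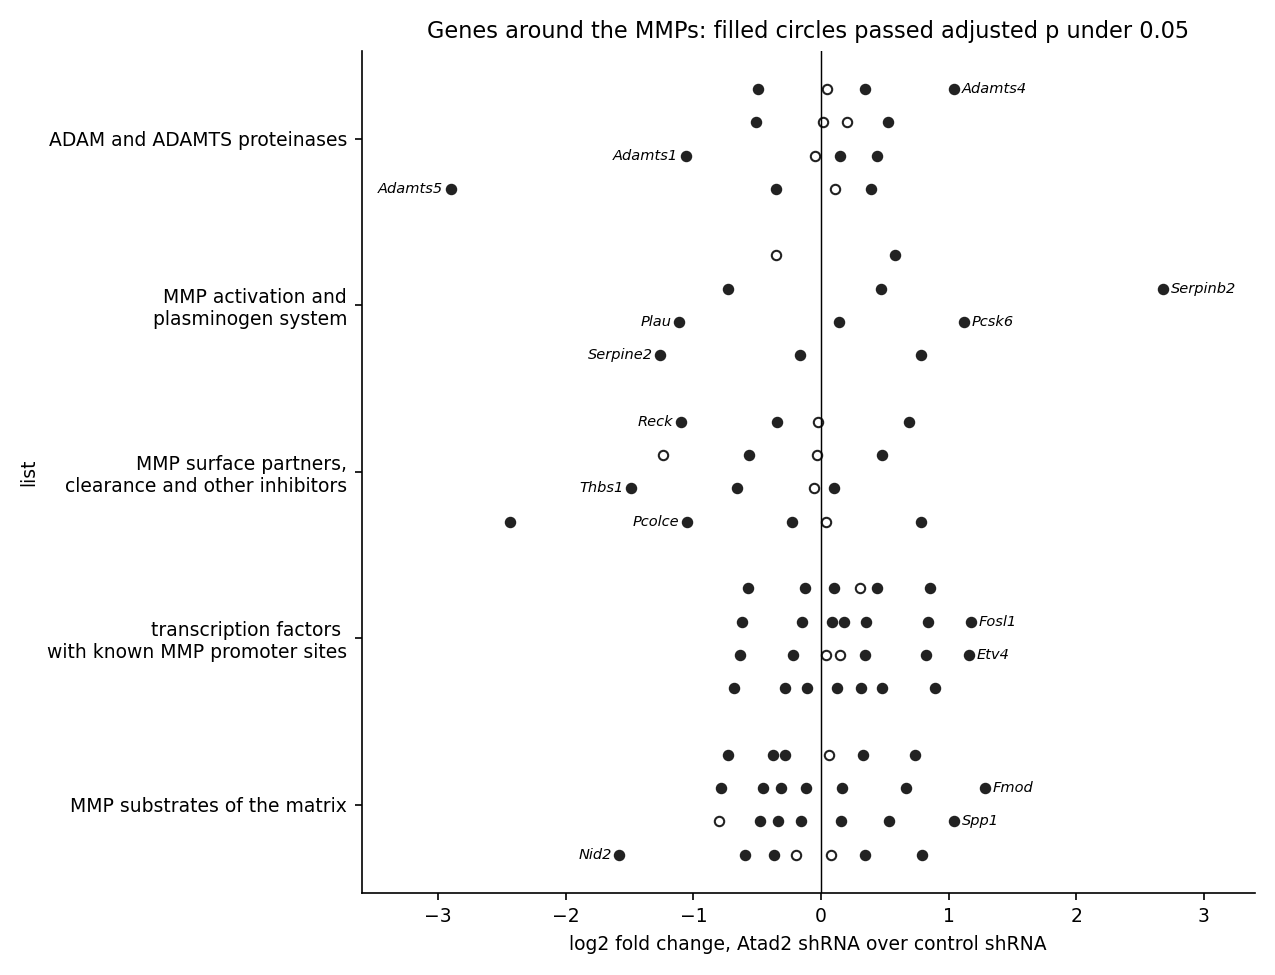
Log2 fold change of Atad2 shRNA over control shRNA for each tested gene in 5 lists around the MMPs, 1 circle per gene, filled where the limma adjusted p was under 0.05. Circles are spread vertically for legibility, and names mark genes of at least 2-fold change with a mean level of at least 5. Adamts5 lies farthest to the left at -2.90 and Serpinb2 farthest to the right at 2.68.

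Markers of other cell types were read beside these results. Summed normalized counts of 10 differentiated muscle markers were 4810 to 6073 with Atad2 shRNA and 731 to 959 with control shRNA, with 7 of 8 tested genes higher. The median log2 fold change of the 8 tested genes was 3.39, and 0 were lower. The sum rested largely on Ttn, with 3283 to 4848 reads with Atad2 shRNA and 274 to 303 with control shRNA. Mylpf had 158 to 300 reads with Atad2 shRNA and 20 to 44 with control shRNA. Myh3 had 113 to 235 with Atad2 shRNA and 1 to 9 with control shRNA, and Myog 73 to 158 and 23 to 39 in that order. Acta1 had 303 to 581 reads with Atad2 shRNA and 439 to 637 with control shRNA. Normalized counts of 10 fibroblast and fibro-adipogenic markers summed to 7265 to 8924 with Atad2 shRNA and 15300 to 15750 with control shRNA, with Lum, Thy1 and Tcf21 at 0. Of the 4 tested fibroblast markers 2 were higher (Pdgfra and Dcn) and 2 lower (Ly6a and Cd34). Ly6a had 1756 to 3248 reads with Atad2 shRNA and 12939 to 15051 with control shRNA, while Pdgfra had 3869 to 5299 with Atad2 shRNA and 1935 to 2291 with control shRNA. For macrophages, Adgre1 and Fcgr1 were at 0 and Ptprc had at most 4 reads in any library. Cd68 had 424 to 552 reads with Atad2 shRNA and 215 to 313 with control shRNA. Cd14 had 437 to 703 reads with Atad2 shRNA and 666 to 790 with control shRNA. Csf1r had at most 53 and Cx3cr1 at most 44 reads in any library. All 10 macrophage markers summed to 1137 to 1337 with Atad2 shRNA and 969 to 1011 with control shRNA, and 1 of 5 tested markers was higher. None of 8 neutrophil markers reached 10 reads in a library, and 5 were at 0. The sum of 8 endothelial markers was 28.3 to 51.2 with Atad2 shRNA and 44.6 to 62.4 with control shRNA, with Tie1, Emcn and Cldn5 at 0. Fewer cells of a type and less RNA per cell cannot be told apart in such libraries, and the part of the muscle and fibroblast markers in the member differences was not tested.

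The genes most like Mmp2 and Mmp19 across the 8 libraries were found by the root mean square distance between values centred on each gene's mean. For Mmp2 these were Olfml3 (distance 0.12 on the log2 scale), Ly6a (0.14) and Ptk2b (0.14), with log2 fold changes of -1.96 ± 0.10, -2.31 ± 0.11 and -2.15 ± 0.17. For Mmp19 they were Apoe (0.17), Flt1 (0.18) and Pi15 (0.19), with log2 fold changes of 2.17 ± 0.18, 2.02 ± 0.06 and 1.92 ± 0.08. These distances describe the same libraries that gave the differences and carry no test.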

How the data were processed

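RNA of 8 C2C12 libraries was compared, 4 with Atad2 shRNA and 4 with control shRNA. The submitters' processing notes name HTSeq 0.13.5, DESeq2, SAMtools 1.1 and bcl2fastq 2.20, and build mm10, while aligner, annotation and strand setting are not given. The deposited log2 values were log2(normalized count + 1), as the values themselves show: 100% of low values were whole reads within 0.1 read once each library's size factor was undone. Reads recovered this way gave depths and read counts.

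Genes with a mean above 3 were tested by limma 3.58.1 (R 4.3.3; eBayes with an intensity trend, no covariates, two-sided), adjusted over all 14703 genes. Exon lengths, overlaps and gene coordinates came from GENCODE M21 (GRCm38), and upstream sequences from RefSeq (GRCm38.p6). The procedure was also run on simulated counts in which few genes changed, unlike here, and no statement rests on that run. Replicates of a group differed by 5.95 to 15.8 times counting noise, so none was a duplicate. The members, lists and tests were chosen with earlier results of these data known. Named genes were all members, other MMPs with at least 10 reads in a library, and in each list up to 4 called genes per direction. List genes had a mean of at least 5 and were taken by size of change. The 3 genes nearest to each called member changed at least 2-fold were named as well. In the search for nearest genes, symbols that start with Gm and a digit or end in Rik were passed over. Python 3.11.15, NumPy 2.4.6, pandas 2.3.3 and matplotlib 3.10.9 made the tables and plots.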

Additional observations from a re-analysis of the deposited data

Results flagged for a closer look

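In 58 named genes, or 116 groups of 4 libraries, 7 libraries stood far from the others of their group, and chance alone flags about 1 in 20 groups. Mmp3 was at 1.95 in Atad2 replicate 2, with the other Atad2 libraries at 0, and at 0.0 in control replicate 4. Mmp10 was at 2.48 in Atad2 replicate 1, with the other Atad2 libraries at 0. These values of Mmp3 and Mmp10 stand for at most 5 reads. Mmp28 was highest in control replicate 3, at 11.23. Pcolce (13.73) and Cav1 (14.08) were highest in Atad2 replicate 4, the library in which Mmp2 was also highest of its group. Fmod was lowest in Atad2 replicate 2, at 7.90.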

How the results depend on the processing

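The calls of Mmp2, Mmp14, Mmp19, Timp1 and Atad2 held under all 19 alternatives run: other filters, an offset of 8, other normalizations and variance models, limma-voom on recovered reads, an adjusted p under 0.01, the replicate block and the omission of each library. A planned count model on recovered reads was fitted and then withdrawn, not for its result, and its values are not used here. The limma-voom fit on the same reads was kept. With quantile and cyclic loess normalization 4 members were called lower in place of 2, at log2 fold changes of -0.18 and -0.18 for Timp2 and -0.17 and -0.17 for Timp3, and Mmp13 passed at 1.99 and 1.96. The cause was not tested. With limma-voom Timp2 passed at -0.07 (-0.0654). Without the variance trend, 4 transcription factor genes were lower in place of 9. Mmp13 gave no value above a mean of 5.

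Same-numbered libraries did not deviate together (r = 0.0336, -0.0227, 0.0208 and 0.0113), so the numbers were not taken as pairs. With the replicate number as a block, 3 members were lower, Timp2 passing at -0.07 (-0.0652, limma adjusted p = 0.0469).

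Leaving out single libraries gave 0.68 to 1.71 for Mmp13, -0.09 to -0.06 for Timp2 (-0.0852 to -0.0555), -0.10 to -0.0017 for Timp3, -0.15 to 0.10 for Mmp23, -0.24 to 0.24 for Mmp24, -0.0508 to 0.0503 for Syn1 and -0.70 to 0.10 for Syn3. Signs also turned under quantile and cyclic loess normalization for Mmp23 (0.45 and 0.43), Mmp24 (0.62 and 0.61), Syn3 (0.29 and 0.31) and Bsg (-0.0033 and -0.0144), and for Mmp24 with an offset of 8 (0.0191) and limma-voom (0.0315). Over 50 other named genes, 895 of 948 values kept direction and call. Mmp3, Mmp9, Mmp10 and Mmp13 had at most 41 reads in any library.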
